A study of Mus musculus with 4 samples.

Results

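Resident peritoneal-like macrophages were the cells of all 4 libraries that passed a marker rule. Members were chosen by their own UMI counts: a cell was a member when its unique molecular identifiers (UMIs, 1 per captured transcript molecule) of Timd4, Prg4, Alox15 and Gata6 summed to 4 or more, when Csf1r and Adgre1 together had at least 1 UMI, and when Cd3e, Cd3d, Cd3g and Cd79a had 0. The rule found 113 members among 35372 kept cells, out of 38068 barcodes; kept cells had 500 or more genes with a UMI, and mitochondrial transcripts were no more than 10% of their UMIs. There were 21 members in the library of mice given 2-deoxy-D-glucose (2DG), 27 in that of aPDL1, 53 in that of both together (2DG_aPDL1, called the combination) and 12 in ctrl, the control library.

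The series concerns ovarian tumours in mice and their response to immune checkpoint blockade. Each treatment group is 1 library, made from polyA RNA by droplet-based single-cell sequencing of transcript 3' ends, and the tissue of all 4 is labelled lymph node. 2DG is a glucose analogue that blocks glycolysis, and aPDL1 is named in the labels by this abbreviation alone. Mouse strain, age, dose, time and the number of animals behind each library are not given in the sources used here, although the design text of the series speaks of young and aged mice. With 1 library per group no value below has a replicate: differences are given by size, and the intervals are exact Poisson or Clopper-Pearson 95% intervals that cover counting error only.

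Resident macrophages of the mouse peritoneal cavity depend on the transcription factor GATA6, which is maintained by retinoic acid from the surrounding tissue. They carry the phosphatidylserine receptor TIM-4 (Timd4), take up dying cells, make the lubricating proteoglycan Prg4 and the lipoxygenase Alox15, and supply coagulation factor V (F5) to clots that trap bacteria on the cavity wall. In ovarian cancer models they are among the macrophages found with tumour cells that spread through the cavity. A smaller population of cavity macrophages, renewed from blood monocytes, has little GATA6 and more Ccr2 and MHC class II.

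The 4 libraries held 61859753 to 73885214 UMIs, and the members had 288871 UMIs in 2DG, 324102 in aPDL1, 727775 in the combination and 257918 in ctrl. Median UMIs per member were 12976 in 2DG, 12285 in aPDL1, 13278 in the combination and 18783 in ctrl. Cells with 3 or more of the 5 T cell markers made up 30.6% to 35.8% of kept cells in the treated libraries and 4.73% in ctrl. Cells with 3 or more of the 5 B cell markers made up 1.83% to 5.61% of kept cells in the treated libraries and 0.957% in ctrl, and at most 1 cell per library carried 3 or more markers of lymph node stroma. Neutrophils, counted by at least 20 S100a8 and S100a9 UMIs, numbered 95 to 138 in the treated libraries and 1730 in ctrl. Between 22 and 30 barcodes were shared by each pair of libraries, and none of them was a member in both libraries of a pair. No doublets were removed: the automatic threshold of Scrublet marked 0 members but also 0% of ctrl barcodes, so it did not work there. When the highest scores were removed at 0.8% per 1000 barcodes, 1 of 21 members was lost in 2DG, 3 of 27 in aPDL1, 20 of 53 in the combination and 1 of 12 in ctrl. At 2 times that rate 4, 13, 47 and 5 were lost in the same order, so that 6 members remained in the combination, none with Prg4 or Alox15. Since the rule demands 0 UMIs of the 3 Cd3 genes and of Cd79a, the low T cell and B cell markers of members (0 to 4 and 0 to 2 UMIs per library, over 5 markers each) follow largely from the rule and say nothing of doublets. Whether members with high scores were doublets was not tested.

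Members were most frequent in the combination and least frequent in ctrl. They made up 0.264% of kept cells in 2DG (0.164 to 0.404), 0.299% in aPDL1 (0.197 to 0.434), 0.570% in the combination (0.427 to 0.745) and 0.132% in ctrl (0.0682 to 0.230). The interval of the combination overlaps that of aPDL1 and not those of 2DG or ctrl, while the intervals of 2DG and aPDL1 overlap that of ctrl. Of cells with Csf1r or Adgre1 they were 0.643% in 2DG, 0.645% in aPDL1, 1.23% in the combination and 0.255% in ctrl. After every cell was thinned to 3000 UMIs, 7, 14, 34 and 3 members were left in 2DG, aPDL1, the combination and ctrl, which were 0.101%, 0.182%, 0.415% and 0.0423% of the cells deep enough. The order of the libraries was kept in each of these counts, although the T cells and neutrophils in the denominator also differed between ctrl and the treated libraries. Removal of high doublet scores at 0.8% per 1000 barcodes left 0.386% in the combination, and at 2 times that rate 0.0767%, which was the lowest of the 4 libraries.

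**Figure D1:**
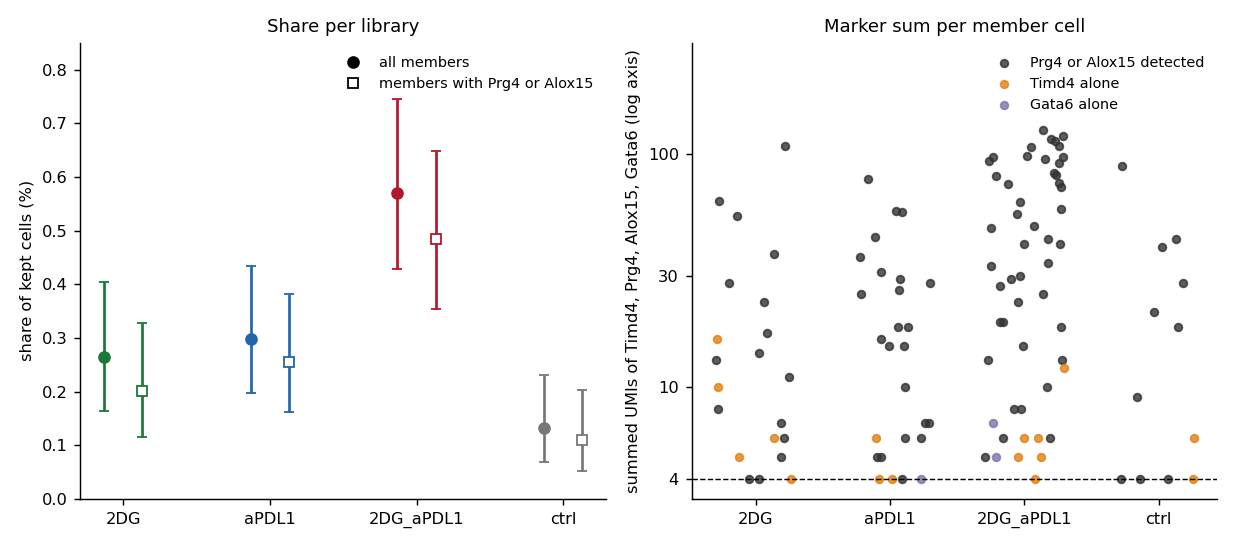
Left, members as a percentage of kept cells in each library, for all members and for those with Prg4 or Alox15, with 95% Clopper-Pearson intervals. Right, the summed UMIs of the 4 rule genes in each member on a log axis, with the rule's limit of 4 dashed; 21 of the 28 cells with 50 or more lie in the combination.

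The marker sum that chose the members spanned 4 to 126 UMIs. Its median was 11 in 2DG, 15 in aPDL1, 34 in the combination and 13.5 in ctrl, and 21 of the 28 members with a sum of 50 or more came from the combination. Just inside the limit, 12 cells had a sum of exactly 4, and just outside it 14 cells had a sum of 3, 8 of them in ctrl. Prg4, lubricin, was at 907 CPM in 2DG, 873 in aPDL1, 2078 in the combination and 694 in ctrl, where CPM is UMIs of the gene per 1000000 UMIs of the same cells. Alox15, which oxygenates arachidonic and linoleic acid, was at 398 CPM in 2DG, 707 in aPDL1, 1075 in the combination and 205 in ctrl. Timd4 was at 169.6 CPM in 2DG, 74.1 in aPDL1, 251 in the combination and 81.4 in ctrl, and Gata6 at 58.8 CPM in 2DG, 74.1 in aPDL1, 49.5 in the combination and 65.9 in ctrl. All 4 genes were detected in 15 members, 3 of them in 27, 2 in 43 and 1 in 28. These values follow from the rule and are descriptions. The share of members with a Prg4 UMI was 71.4% in 2DG, 85.2% in aPDL1, 81.1% in the combination and 75.0% in ctrl. T cells were taken as a rough gauge of free RNA, and empty droplets were not examined. Among T cells the shares were 0.664% in 2DG, 0.542% in aPDL1, 0.420% in the combination and 0.449% in ctrl. Their median was 5643 to 6134 UMIs per cell, below that of members. Thinned to 5000 UMIs, 58.3% to 77.4% of members and 0.182% to 0.476% of T cells per library had a Prg4 UMI.

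The members fell into 3 patterns by which rule genes were detected, and Cd5l, the marker of the label that the rule did not use, was found in 1 of them. Prg4 or Alox15 was detected in 94 members (16 in 2DG, 23 in aPDL1, 45 in the combination and 10 in ctrl), Timd4 alone in 16 (5, 3, 6 and 2) and Gata6 alone in 3 (0, 1, 2 and 0). The patterns were set after their values were seen. Among the 94, 16 and 3 cells, Cd5l, a secreted scavenger protein of tissue macrophages and the fifth marker of the label, had a UMI in 70, 0 and 0. The same counts were 91, 2 and 0 for C1qa, a subunit of complement C1q made by macrophages, 92, 0 and 0 for the acute phase protein Saa3, 84, 0 and 0 for F5 and 81, 1 and 0 for P-selectin (Selp). Of the rule genes themselves, Gata6 had a UMI in 37 and Timd4 in 31 of the 94 cells, while the others were set apart by having 1 of these genes alone. Each of Cd5l, C1qa, Saa3, F5 and Selp was thus found in most of the 94 cells, and the other 19 had almost none of these 5 genes. The 94 were not uniform: 1 of them, in aPDL1, had 1 Prg4, 3 Gata6 and 317 Mgp UMIs and 0 of these 5 genes. A cell of aPDL1 with Gata6 alone had 127 Mgp UMIs. The 16 cells with Timd4 alone had H2-Aa, an MHC class II chain, in 16 of 16 cells and at 4307 CPM, against 1019 CPM in the 94. They also had Flt3 in 7 cells, Zbtb46 in 12, Cd209a in 8, Kit in 9, Ccr7 in 4 and Xcr1 in 3, genes known from dendritic cells or, for Kit, from progenitors and mast cells. In the 94 cells these counts were 0, 4, 2, 1, 0 and 0. Of the 3 cells with Gata6 alone, 2 had Krt18, an epithelial keratin, and 2 had Tnnt2. The 19 cells without Prg4 or Alox15 are given no cell type name here, and the main results below are also given for the 94 alone.

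**Figure D2:**
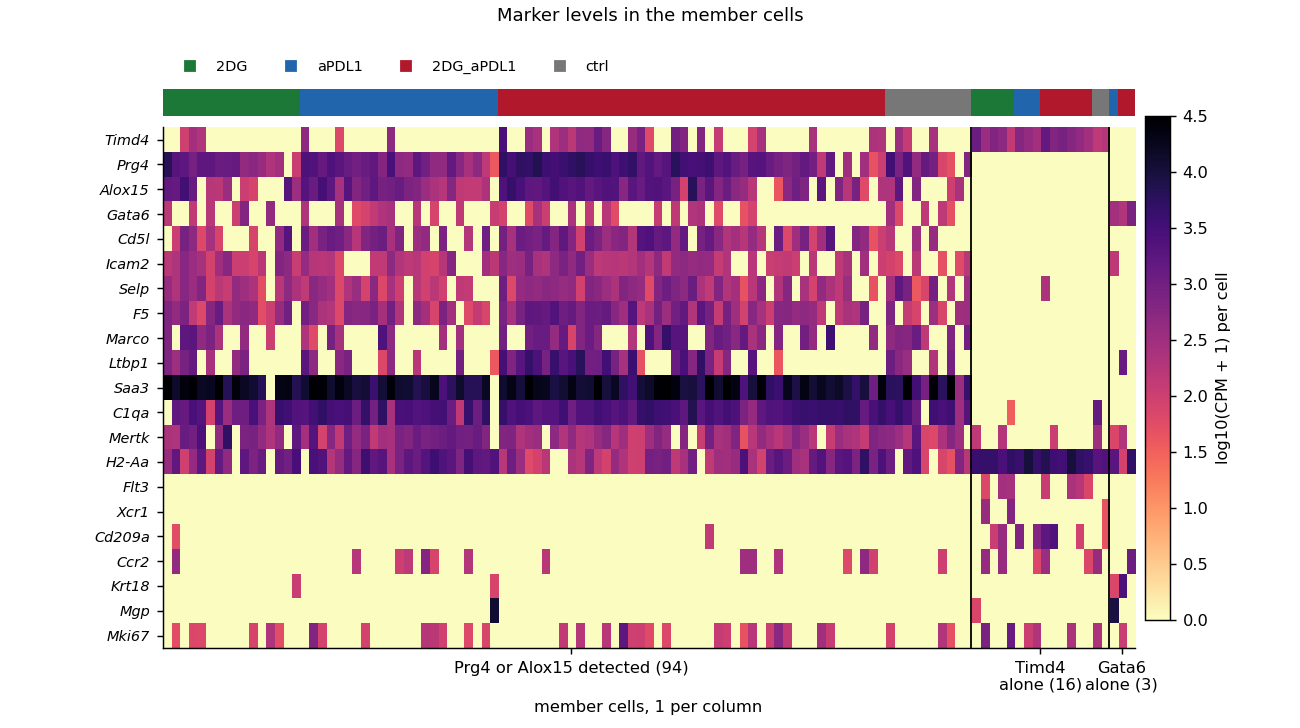
Levels of 21 genes in the 113 members, 1 cell per column, as log10 of CPM per cell plus 1, ordered by pattern, library (bar on top) and marker sum. Saa3, C1qa, F5 and Selp fill the block of 94 cells with Prg4 or Alox15, while the block of 16 cells with Timd4 alone has H2-Aa in every cell and Flt3 or Cd209a in some, with almost no Saa3, C1qa, F5 or Selp.

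Markers of other cell types were also counted among the members. At least 1 of 6 neutrophil markers was found in most of them, although Retnlg and Cxcr2 were nearly absent. Of the classical monocyte markers, Plac8 was at 377 CPM in 2DG, 370.3 in aPDL1, 452 in the combination and 62.0 in ctrl, with a UMI in 13 of 21 members in 2DG, 20 of 27 in aPDL1, 41 of 53 in the combination and 3 of 12 in ctrl. Chil3 was at 831 CPM in 2DG, 49.4 in aPDL1, 249 in the combination and 2055 in ctrl, with a UMI in 6 of 21 members in 2DG, 7 of 27 in aPDL1, 21 of 53 in the combination and 10 of 12 in ctrl, the highest level and share of the 4 libraries. Chil3 was also highest in ctrl among the C1q macrophages described below. It was there at 55.7 CPM in 2DG, 70.7 in aPDL1, 119 in the combination and 490 in ctrl. Ly6c2 had 5 UMIs in 2DG, 3 in aPDL1, 23 in the combination and 1 in ctrl. The 6 neutrophil markers summed to 79 UMIs in 2DG (273 CPM), 51 in aPDL1 (157), 306 in the combination (420.5) and 412 in ctrl (1597) and were found in 15 of 21 members in 2DG, 15 of 27 in aPDL1, 45 of 53 in the combination and 10 of 12 in ctrl. Among the 94 cells with Prg4 or Alox15, Csf3r had a UMI in 56, S100a8 in 22 and S100a9 in 9. Il1r2 had a UMI in 7 of them, Retnlg in 1 and Cxcr2 in 0. Csf3r was also found in 38.1% of the C1q macrophages described below. Of the 16 cells with Timd4 alone, 14 had Il1r2, with 409 UMIs. The dendritic cell markers summed to 80 UMIs in 2DG, 17 in aPDL1, 60 in the combination and 45 in ctrl. The part of these markers in the results was not tested. The 4 eosinophil markers had 0 UMIs in every library, and the 6 lymph node stroma markers 7 to 29 UMIs per library. Of 412 neutrophil marker UMIs in ctrl members, 89.3% lay in 1 cell, and of 82 natural killer cell marker UMIs in the combination, 95.1% lay in 1 cell. Mesothelial or epithelial markers reached 156 UMIs in the combination, 99.4% of them in 1 cell. Ccr2, the monocyte chemokine receptor, was at 83.1 CPM in 2DG, 55.5 in aPDL1, 56.3 in the combination and 73.7 in ctrl, against 461 to 509 CPM in C1q macrophages of the same libraries. Those comparison cells carried Csf1r or Adgre1, at least 10 UMIs of C1qa, C1qb and C1qc, and none of the 4 rule genes, and they numbered 908 in 2DG, 832 in aPDL1, 1141 in the combination and 1009 in ctrl. Ccr2 was thus lower in members in all 4 libraries. Cd226, another marker of small cavity macrophages, had at most 3 UMIs in members of any library, and Folr2 was at 31.2 CPM in 2DG, 15.4 in aPDL1, 48.1 in the combination and 38.8 in ctrl.

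Against C1q macrophages of the same library, the members had higher levels of many peritoneal residency and coagulation genes, and of Ltbp1, Marco and Saa3. Because the rule separates the 2 sets, these values describe the members and test nothing. Of 752 genes with at least 50 member UMIs in every library, 38 were 2-fold or more higher in members in all 4 libraries, which is 5.05%. Of 8969 genes with as many UMIs in C1q macrophages, 131 were as far below (1.46%). In the list of peritoneal residency genes, with the rule's genes left out, 13 of 23 measured genes were 2-fold higher in all 4 libraries and 0 were lower. Among all 9087 genes that pass the UMI filter used for lists, 1.56% were higher and 1.44% lower in this way. The median log2 ratio of the residency list was 2.97 in 2DG, 3.07 in aPDL1, 3.98 in the combination and 2.39 in ctrl, against -0.09 to 0.00 over all genes. The lists were drawn up with earlier results of these data known, so this direction is no independent support for the label.

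Among secreted proteins, Saa3 was the most abundant, at 11939.6 CPM in 2DG (11544 to 12345), 10864 in aPDL1 (10508 to 11229), 12865 in the combination (12606 to 13128) and 11166 in ctrl (10762 to 11582), against 189.5 to 351 CPM in C1q macrophages. It lay in 15 of 21, 22 of 27, 45 of 53 and 10 of 12 members of 2DG, aPDL1, the combination and ctrl, and 1 cell held 40.4% of its UMIs in ctrl. Slpi, a protease inhibitor of mucosal and inflamed tissue, was at 1693 CPM in 2DG, 1373 in aPDL1, 2027 in the combination and 981 in ctrl and C4b, complement component C4, at 775 CPM in 2DG, 623 in aPDL1, 742 in the combination and 388 in ctrl. Reads of C4b can be shared with its near-identical neighbour C4a, and those of Saa3 with its paralogs. Lrg1, a glycoprotein that modulates transforming growth factor beta signals in vessels, was at 256 CPM in 2DG, 302 in aPDL1, 386 in the combination and 233 in ctrl. Fn1, fibronectin, was at 5483 CPM in 2DG, 8991 in aPDL1, 9717 in the combination and 5347 in ctrl, against 1662 to 2551 CPM in C1q macrophages. The log2 ratio over C1q macrophages was 5.20 to 5.86 across the 4 libraries for Saa3, 3.49 to 4.60 for Slpi, 3.45 to 4.87 for C4b and 2.44 to 5.02 for Lrg1.

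Ltbp1, which tethers latent transforming growth factor beta to the matrix, had the highest lowest-of-4 log2 ratio over C1q macrophages among the 752 genes, 7.59 to 10.35. It was at 201 CPM in 2DG (152 to 259.6), 191 in aPDL1 (147 to 245), 954 in the combination (884 to 1027) and 240.4 in ctrl (184 to 308), and was detected in 7 cells in 2DG, 9 in aPDL1, 27 in the combination and 5 in ctrl, a subset in every library. Tgfb2, 1 of its ligands, was at 65.8 CPM in 2DG (39.6 to 103), 197 in aPDL1 (152 to 252), 315 in the combination (275 to 358) and 42.6 in ctrl (21.3 to 76.3), against 0.494 to 1.32 CPM in C1q macrophages, and was detected in 5 cells in 2DG, 8 in aPDL1, 22 in the combination and 3 in ctrl. With 19 UMIs in 2DG and 11 in ctrl it was not among the 752 genes. Marco, a scavenger receptor for bacteria and particles, was at 267 CPM in 2DG, 185 in aPDL1, 599 in the combination and 326 in ctrl, a log2 ratio of 7.35 to 8.56 over C1q macrophages. Vsig4, a complement receptor of resident macrophages, had 0 UMIs in 2DG, where 3 UMIs would be 10.4 CPM, and was at 123 CPM in aPDL1, 59.1 in the combination and 54.3 in ctrl, where 1 cell held every UMI. Ltbp1 and Marco were each found in a subset of members.

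Of the adhesion molecules, Icam2, a ligand of leukocyte integrins, was at 177 CPM in 2DG (131 to 232), 123 in aPDL1 (88.2 to 168), 214 in the combination (182 to 251) and 42.6 in ctrl (21.3 to 76.3), against 4.94 to 7.66 CPM in C1q macrophages. Selp, which mouse cavity macrophages make although it is best known from platelets, was at 177 CPM in 2DG, 136 in aPDL1, 304 in the combination and 259.8 in ctrl, against 1.76 to 5.86 CPM. Itga6, integrin alpha 6, exceeded C1q macrophages by log2 2.39 to 3.98, and Cd9, a tetraspanin, was at 242 CPM in 2DG, 339 in aPDL1, 341 in the combination and 585 in ctrl. Among coagulation genes, 5 of 11 measured were 2-fold higher in all 4 libraries and 0 lower, with medians of 1.49 in 2DG, 1.10 in aPDL1, 2.10 in the combination and 0.70 in ctrl. Of all genes, 1.56% were 2-fold higher in all 4 libraries. F5 was at 273 CPM in 2DG (217 to 341), 265 in aPDL1 (212 to 328), 578 in the combination (525 to 636) and 139.6 in ctrl (97.8 to 193), and F10, factor X, at 564 CPM in 2DG, 481 in aPDL1, 475 in the combination and 748 in ctrl. Thbs1, thrombospondin 1, was at 1551 CPM in 2DG, 1632 in aPDL1, 1608 in the combination and 1462 in ctrl, and differed little between libraries.

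Other genes above C1q macrophages by the naming rule were Add3 (log2 2.44 to 3.48) and Sptbn1 (1.87 to 2.77) of the membrane skeleton, the transcription factor Nfia (2.41 to 4.02), Gbe1 (2.11 to 3.87), which branches glycogen, Acaca (2.09 to 2.77), which starts fatty acid synthesis, and Plxdc2 (1.99 to 3.54). Ptgis, prostacyclin synthase, was at 93.5 CPM in 2DG, 123 in aPDL1, 294 in the combination and 101 in ctrl, while C1q macrophages had 0.0861 to 0.236 CPM. Alox5, the lipoxygenase of leukotriene synthesis, was at 38.1 CPM in 2DG, 43.2 in aPDL1, 82.4 in the combination and 54.3 in ctrl. Of genes for uptake of dying cells, Mertk, a receptor kinase that binds phosphatidylserine through bridging proteins, was at 623 CPM in 2DG, 568 in aPDL1, 286 in the combination and 426 in ctrl, against 244 to 302 CPM, and Axl, of the same kinase family, at 6.92 CPM in 2DG, 71.0 in aPDL1, 46.7 in the combination and 132 in ctrl. Apoe, the lipid carrier, was at 4064 CPM in 2DG, 8068 in aPDL1, 5549.8 in the combination and 4637 in ctrl, and C1qa at 1097 CPM in 2DG, 2326 in aPDL1, 2453 in the combination and 2028 in ctrl, against 1944 to 2716 CPM in C1q macrophages, which were chosen for it. Members thus had C1qa near the level of C1q macrophages in 3 of 4 libraries and lower in 2DG, where 5 of 21 members had Timd4 alone and 5 cells had no C1qa UMI; among cells with Prg4 or Alox15 it was at 1618 CPM in 2DG, 2739 in aPDL1, 2848 in the combination and 2393 in ctrl.

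On the lower side, Mmp12, the macrophage elastase, had 2, 1, 0 and 3 UMIs in members of 2DG, aPDL1, the combination and ctrl, against 98.6 to 382 CPM in C1q macrophages. Mmp13, a collagenase, had 0, 0, 3 and 0 UMIs, Ms4a7 1, 1, 2 and 3, and Fcrls 0, 0, 0 and 3. Ccl5, a T cell attractant, was at 55.4 CPM in 2DG, 24.7 in aPDL1, 75.6 in the combination and 0 in ctrl, against 498 CPM in 2DG, 479 in aPDL1, 1144 in the combination and 81.6 in ctrl in C1q macrophages. In the chemokine list 5 of 18 measured genes were 2-fold lower in all 4 libraries and 1 was higher, against 1.44% and 1.56% of all genes. Ccl8, a monocyte attractant, had 1, 6, 5 and 18 UMIs in members, against 114 to 874 CPM in C1q macrophages. The MHC class II list had a median log2 ratio of -0.77 in 2DG, -0.94 in aPDL1, -1.79 in the combination and -0.82 in ctrl, with 0 of 9 genes 2-fold apart in all 4 libraries. Summed over the list, the median Prg4 or Alox15 cell had 5743 CPM in 2DG, 9483 in aPDL1, 2396 in the combination and 2716 in ctrl, against 21787, 23384, 23288 and 5551 CPM in the median C1q macrophage of the same libraries.

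**Figure D3:**
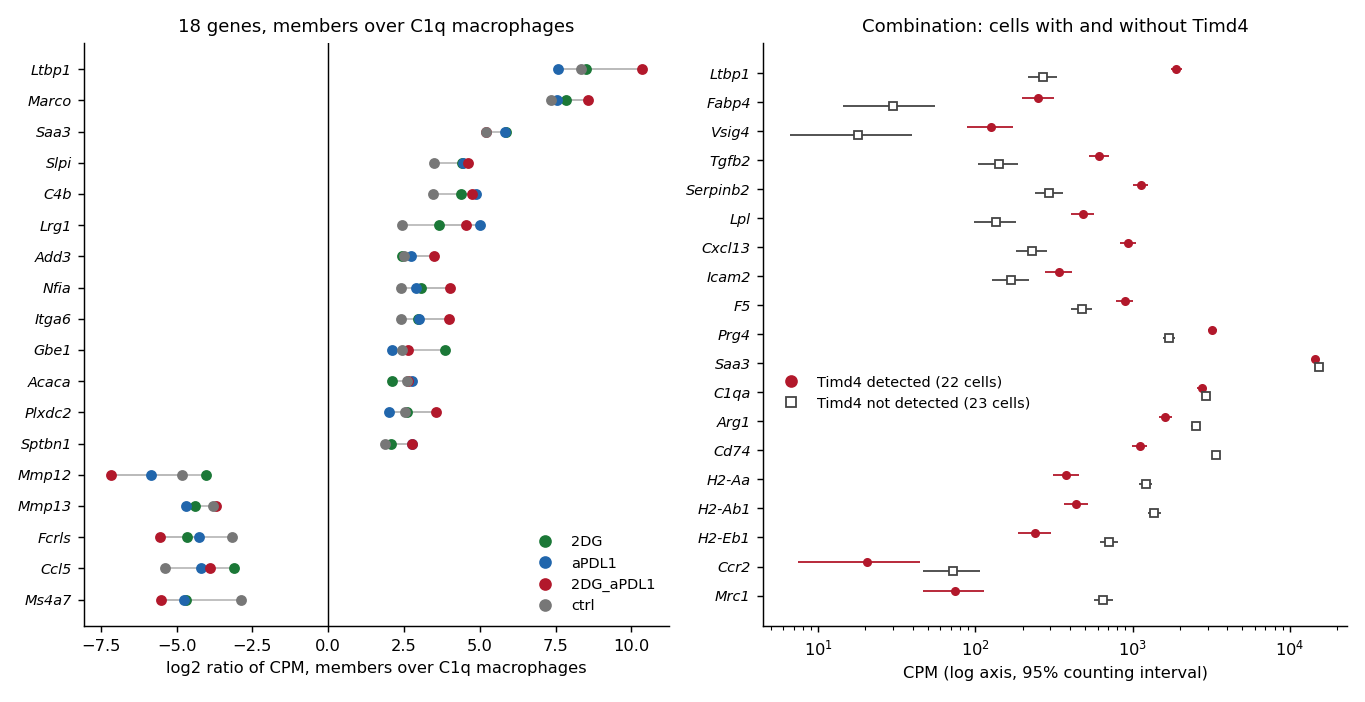
Left, log2 ratio of CPM in members over C1q macrophages for 13 genes named as higher and 5 named as lower, 1 point per library; points of genes with 0 member UMIs depend on the 0.5 added to each count. Right, CPM with 95% counting intervals on a log axis in the 45 Prg4 or Alox15 cells of the combination, split into 22 with and 23 without a Timd4 UMI: Ltbp1, Tgfb2 and Prg4 lie higher with Timd4, and Mrc1 and the H2 genes lower.

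Promoter sequence was read for 3 of these genes because GATA6 and retinoic acid are the known regulators of cavity macrophages in mice. The windows are the 250 bases before the RefSeq gene start on GRCm38.p6, printed 5′ to 3′ on the gene's strand. Cd5l lies at chr3:87357631-87357880 on the + strand, Saa3 at chr7:46715677-46715926 on the - strand and Rarb, retinoic acid receptor beta, at chr14:16575477-16575726 on the - strand. In Cd5l and Saa3 capitals mark matches on either strand to a GATA motif, spelled AGATAA or with its first base T, its last base G, or both. In Rarb they mark a match on either strand to GGTTCA and AGTTCA set 5 bases apart.
Cd5l: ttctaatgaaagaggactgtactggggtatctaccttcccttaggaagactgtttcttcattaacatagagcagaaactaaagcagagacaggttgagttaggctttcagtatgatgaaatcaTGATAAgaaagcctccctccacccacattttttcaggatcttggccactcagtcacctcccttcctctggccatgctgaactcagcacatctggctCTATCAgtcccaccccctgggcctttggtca
Saa3: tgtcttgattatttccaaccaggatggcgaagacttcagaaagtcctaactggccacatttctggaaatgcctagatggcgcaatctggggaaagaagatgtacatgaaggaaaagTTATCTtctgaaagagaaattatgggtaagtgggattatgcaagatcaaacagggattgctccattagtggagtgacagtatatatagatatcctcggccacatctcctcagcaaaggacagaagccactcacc
Rarb: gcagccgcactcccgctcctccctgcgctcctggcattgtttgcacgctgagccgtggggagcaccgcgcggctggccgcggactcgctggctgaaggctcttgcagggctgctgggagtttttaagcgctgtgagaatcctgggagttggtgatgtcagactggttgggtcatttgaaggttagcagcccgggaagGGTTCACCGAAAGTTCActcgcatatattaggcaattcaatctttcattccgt
The Cd5l window holds TGATAA at 127 to 122 bases before the start and CTATCA, the reverse complement of TGATAG, at 31 to 26 bases before it. The Saa3 window holds TTATCT, the reverse complement of AGATAA, at 134 to 129 bases before the start. Such matches are common: 8717 of 32841 mouse promoter windows of this length (26.5%) hold 1, and of 28 windows found for 24 of the 35 residency genes, 5 do (17.9%: Cd5l, Ecm1, Lyz1, Saa3 and Serpinb2). The Rarb window holds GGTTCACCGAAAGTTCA at 53 to 37 bases before the start, a spacing of direct repeats that retinoic acid receptors bind, and 2 of 32841 windows (0.00609%) hold such a match. GGTTCA and AGTTCA are spelled as in the Rarb window and no other spelling was searched, whereas several were allowed for GATA. The Rarb match and its rarity follow from that choice, and the 2 motif shares cannot be compared. A match describes letters and shows no binding. Rarb was at 62.3 CPM in 2DG (36.9 to 98.5), 123 in aPDL1 (88.2 to 168), 243 in the combination (209 to 282) and 62.0 in ctrl (35.5 to 101), against 2.02 to 4.95 CPM in C1q macrophages, and its partner receptor Rxra at 55.4 CPM in 2DG, 40.1 in aPDL1, 46.7 in the combination and 42.6 in ctrl, against 11.1 to 18.4 CPM.

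The 2DG comparison asks what the members had in common in the 2 libraries given 2DG. It sets 2DG against ctrl and the combination against aPDL1, pairs that share no library. Few genes were far apart in both: 7 of 1201 genes that reached 50 UMIs in whichever library of a pair was higher were 2-fold or more higher in both (0.583%), 3 were lower (0.25%), and 22 were 2-fold apart in opposite directions. In single pairs 8.57% of genes were 2-fold higher and 7.45% lower in 2DG over ctrl, and 5.58% higher and 1.84% lower in the combination over aPDL1. Serpinb2, an inhibitor of plasminogen activators made by activated macrophages, and the transcription factor Klf4 were higher, and Spp1, osteopontin, was lower. No spread between libraries is available against which to set these counts.

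Serpinb2 (ENSMUSG00000062345) was at 263 CPM in 2DG (207 to 329), 98.7 in aPDL1 (67.5 to 139), 591 in the combination (536 to 649) and 96.9 in ctrl (62.7 to 143). Both libraries with 2DG lay above both without it, and the interval of aPDL1 overlapped that of ctrl. Its log2 ratio was 1.42 (0.77 to 2.15) in 2DG over ctrl and 2.56 (2.06 to 3.15) in the combination over aPDL1, although 1 cell held 53.9% of the 76 UMIs in 2DG. C1q macrophages had 0.202 to 2.54 CPM. Klf4 (ENSMUSG00000003032) was at 249 CPM in 2DG (195 to 314), 157 in aPDL1 (117 to 207), 430.1 in the combination (384 to 480.5) and 101 in ctrl (65.9 to 148) and was spread over 16 cells in 2DG, 17 in aPDL1, 48 in the combination and 9 in ctrl, with log2 ratios of 1.29 (0.64 to 2.01) and 1.44 (1.02 to 1.91). In C1q macrophages Klf4 was at 203 CPM in 2DG, 220.5 in aPDL1, 366 in the combination and 271 in ctrl. At 2 times the doublet rate, which left 6 members in the combination, the second ratio was -4.29 for Serpinb2 and -0.69 for Klf4. Bcl2l11, the pro-apoptotic protein BIM, was at 374 CPM in 2DG, 108 in aPDL1, 350.4 in the combination and 159 in ctrl, with log2 ratios of 1.22 and 1.68. Ptprm, a receptor phosphatase of cell contacts, had log2 ratios of 1.47 and 1.22, Pard3b, a polarity protein, 1.23 and 1.10, and Ckb, brain creatine kinase, 3.28 and 1.71. Hmgb2, a chromatin protein of dividing cells, was 2-fold higher in both pairs over all members, at 453 CPM in 2DG, 92.6 in aPDL1, 199 in the combination and 194 in ctrl, but among cells with Prg4 or Alox15 its log2 ratio in 2DG over ctrl was -0.18. In 2DG, 1 cell each held 53.9% of Serpinb2, 50.6% of Ckb and 51.9% of Hmgb2 UMIs.

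Spp1 (ENSMUSG00000029304), a secreted phosphoprotein of tumour-associated macrophages, was at 58.8 CPM in 2DG (34.3 to 94.2), 1682 in aPDL1 (1543 to 1829), 53.6 in the combination (38.1 to 73.3) and 2668 in ctrl (2472 to 2875). It was detected in 5 cells in 2DG, 2 in aPDL1, 4 in the combination and 10 in ctrl, and ctrl was the only library in which most members carried it. Its log2 ratio was -5.46 in 2DG over ctrl and -4.95 in the combination over aPDL1, but in aPDL1 76.1% of 545 UMIs lay in 1 cell and the rest in 1 other. With a marker sum of at least 6 the second ratio turned to 4.79, since neither of these cells was then a member, and with a sum of at least 3 the first became -1.74. In C1q macrophages Spp1 was at 801 CPM in 2DG, 901 in aPDL1, 642 in the combination and 2071 in ctrl. Cd63, a tetraspanin of lysosomes, was at 79.6 CPM in 2DG, 204 in aPDL1, 64.6 in the combination and 299 in ctrl, with log2 ratios of -1.89 and -1.65. The ratio of the second pair became 0.99 with a marker sum of at least 6. AA467197 had log2 ratios of -1.33 and -1.48.

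The aPDL1 comparison sets aPDL1 against ctrl and the combination against 2DG, and asks what the 2 libraries given aPDL1 shared. Both comparisons draw on all 4 libraries and are therefore not independent. The members of both libraries given aPDL1 had more Cd5l and Tgfb2 and less Hmox1 and F13a1. The residency list as a whole did not rise in aPDL1 over ctrl, where 4 of 24 measured genes were 2-fold higher and 3 lower. Its median log2 ratio there was -0.06, against -0.07 over all genes. In the combination over 2DG, 9 of 27 genes of the list were 2-fold higher and 0 lower. Over the 1299 genes compared, 22 were 2-fold higher in both pairs (1.69%) and 33 lower (2.54%), and 11 were 2-fold apart in opposite directions. Among cells with Prg4 or Alox15, 14 were higher and 18 lower, 11 and 12 of which were also called over all members. In single pairs 8.7% of genes were higher and 10.2% lower in aPDL1 over ctrl, and 7.27% higher and 5.53% lower in the combination over 2DG.

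Cd5l (ENSMUSG00000015854) was at 125 CPM in 2DG (87.3 to 173), 438 in aPDL1 (369 to 516), 616 in the combination (559.9 to 675) and 69.8 in ctrl (41.4 to 110.3). It was detected in 9 of 21, 17 of 27, 41 of 53 and 3 of 12 members, and the intervals of the 2 libraries given aPDL1 lay above those of the other 2. The log2 ratio was 2.62 (1.94 to 3.45) in aPDL1 over ctrl and 2.29 (1.81 to 2.84) in the combination over 2DG, and 2.45 and 1.94 among cells with Prg4 or Alox15. C1q macrophages had at most 0.775 CPM. After members were thinned to 5000 UMIs, 20%, 60%, 62.3% and 8.33% had a Cd5l UMI in 2DG, aPDL1, the combination and ctrl, the same order as before thinning. In a CPM over summed cells, fewer cells with Cd5l and less Cd5l per cell cannot be told apart. At 2 times the doublet rate, which took every cell with Prg4 or Alox15 from the combination, the second ratio of Cd5l was -4.26 and that of Tgfb2, below, -3.76. Tgfb2 had log2 ratios of 2.16 (1.28 to 3.28) and 2.22 (1.58 to 3.02), and its levels, given above, lay in the same order. The 3 cells with Tgfb2 in ctrl and the 5 in 2DG included 1 cell each with 63.6% and 57.9% of the UMIs.

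Tmem176b, a membrane protein of endosomes in antigen-presenting cells, was at 76.2 CPM in 2DG (47.7 to 115), 278 in aPDL1 (223 to 341), 243 in the combination (209 to 282) and 42.6 in ctrl (21.3 to 76.3), and Tmem176a, its paralog, at 51.9 CPM in 2DG, 167 in aPDL1, 206 in the combination and 19.4 in ctrl. Their log2 ratios were 2.65 and 1.65, and 2.98 and 1.95, while in C1q macrophages Tmem176b spanned only 112 to 134 CPM. Cxcl10, an interferon-induced chemokine for T cells, was at 72.7 CPM in 2DG, 499.8 in aPDL1, 291 in the combination and 116 in ctrl, with log2 ratios of 2.08 and 1.97; 1 cell held 93.3% of its ctrl UMIs. Tmx4, a thioredoxin-related membrane protein, was higher by log2 2.73 and 1.79, and Cald1, caldesmon, by 1.68 and 3.17. Prune2 had log2 ratios of 3.49 and 5.33, and 1 cell held all 50 of its UMIs in the combination. Lyz1, a lysozyme of the residency list, was at 76.2 CPM in 2DG, 167 in aPDL1, 146 in the combination and 0 in ctrl; 3 UMIs would be 11.6 CPM in ctrl.

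Among lower genes, Hmox1, heme oxygenase, was at 640.4 CPM in 2DG (551 to 739.7), 133 in aPDL1 (96.0 to 179), 159 in the combination (132 to 191) and 958 in ctrl (842 to 1085). The 2 libraries given aPDL1 lay below the other 2, with log2 ratios of -2.84 (-3.35 to -2.38) and -2.00 (-2.35 to -1.66). A single ctrl cell held 67.2% of its UMIs there, and in C1q macrophages Hmox1 was at 251 CPM in 2DG, 154 in aPDL1, 183 in the combination and 658 in ctrl. F13a1, the coagulation factor XIII A chain of macrophages, was at 377 CPM in 2DG, 129.6 in aPDL1, 46.7 in the combination and 810.3 in ctrl, with log2 ratios of -2.63 and -3.00. Adam8, a sheddase of myeloid cells, had log2 ratios of -3.40 and -2.08, Fnbp1 -1.83 and -1.98, and Wfdc21 -5.66 and -1.96. Ccl17, a dendritic cell chemokine, had 70, 4, 3 and 66 UMIs in 2DG, aPDL1, the combination and ctrl and 0 in every cell with Prg4 or Alox15, so its ratios of -4.21 and -5.67 came from the cells with Timd4 or Gata6 alone. The same cells carried much of Tbc1d4 (log2 -5.59 and -3.25) and Tbc1d8 (-3.19 and -3.41), whose ratios among cells with Prg4 or Alox15 were -2.61 and -0.94, and -0.13 and -0.89.

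**Figure D4:**
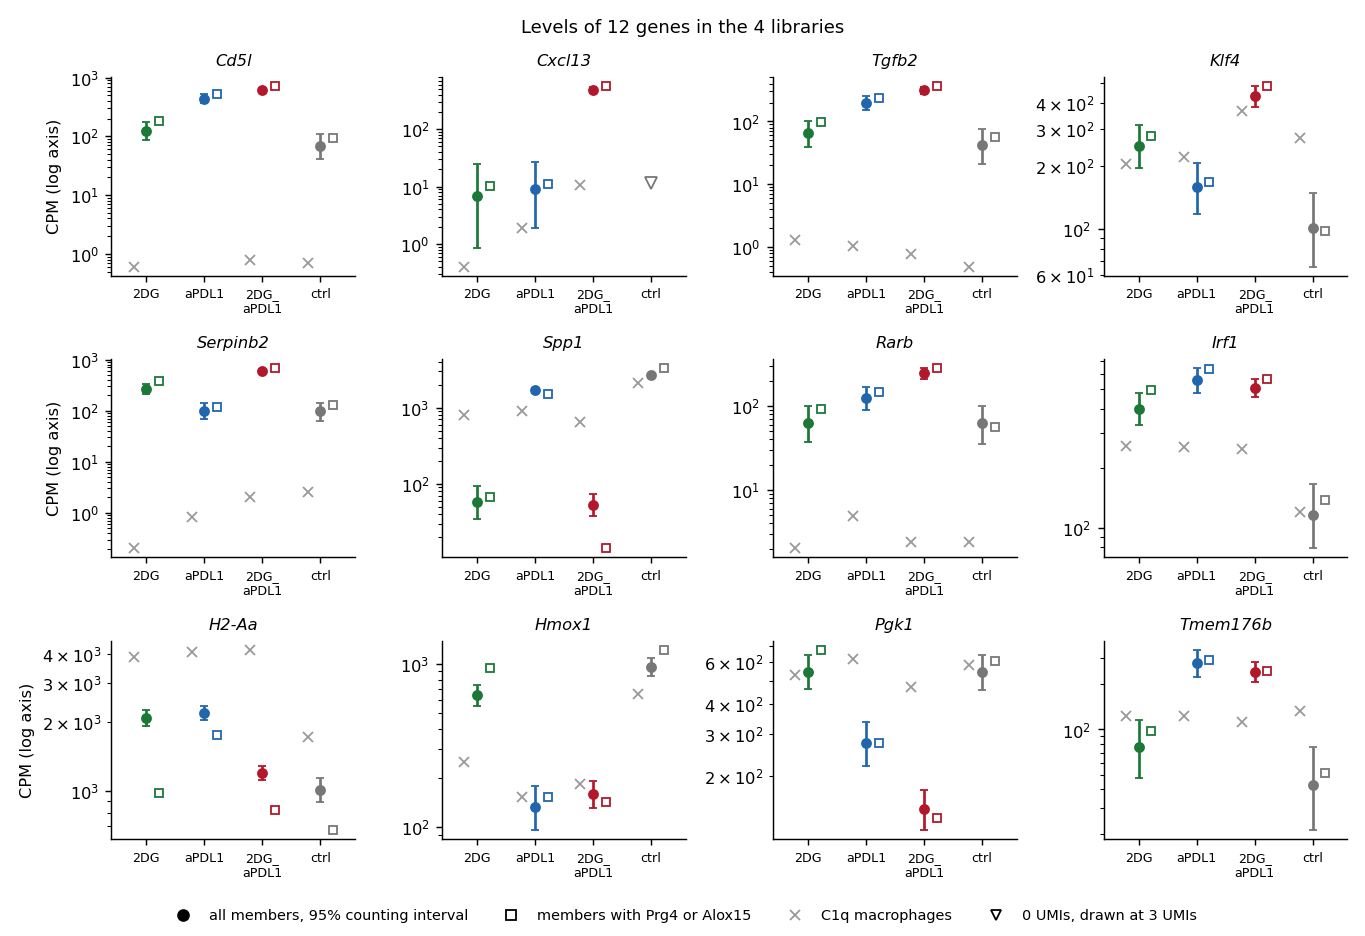
CPM on a log axis of 12 genes in the members of each library with 95% counting intervals, in cells with Prg4 or Alox15 (open squares) and in C1q macrophages (crosses); the open triangle marks 0 UMIs drawn at 3. Cd5l, Tgfb2 and Tmem176b are higher in aPDL1 and the combination, Serpinb2 and Klf4 in 2DG and the combination, and Cxcl13 in the combination alone.

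The combination stood outside the other 3 libraries for 38 of 2599 genes on the higher side (1.46%) and 1 of 752 on the lower side (0.133%). Cxcl13 (ENSMUSG00000023078), the chemokine that draws B cells and is made by cavity macrophages in mice, was the farthest above. It had 2 UMIs in 2DG, 3 in aPDL1, 352 in the combination and 0 in ctrl, which is 6.92 CPM in 2DG (0.838 to 25), 9.26 in aPDL1 (1.91 to 27.1), 484 in the combination (434 to 537) and 0 in ctrl (0 to 14.3). Of 53 members of the combination 16 carried it, against 2 of 21, 1 of 27 and 0 of 12, and 1 cell held 22.4% of its UMIs. Its log2 ratio was 5.49 (4.15 to 7.99) over aPDL1 and 5.81 (4.26 to 9.18) over 2DG, and all carriers had Prg4 or Alox15. At 2 times the doublet rate, which took those cells from the combination, the ratios were -1.67 and -0.80. In C1q macrophages Cxcl13 was at 0.405 CPM in 2DG, 1.89 in aPDL1, 10.9 in the combination and 0 in ctrl. Of T cells, 0.184% in 2DG, 0.116% in aPDL1, 0.191% in the combination and 0% in ctrl had a Cxcl13 UMI, against 30.2% of members of the combination. B cells, the cells this chemokine attracts, numbered 104, 198, 415 and 63 in 2DG, aPDL1, the combination and ctrl, and a link between the 2 was not tested. Kcnip4, a potassium channel partner, had 0, 0, 112 and 2 UMIs, in 12 cells of the combination and 1 of ctrl. Retnla, a protein of alternatively activated macrophages, had 0, 2, 65 and 0 UMIs, 70.8% of the 65 in 1 cell. Gzma, a granzyme of killer cells, and Krt18 had 94.5% and 100% of their UMIs in 1 cell each. Pfkp, a phosphofructokinase of glycolysis, was the gene called lower, at 585 CPM in 2DG, 413 in aPDL1, 142 in the combination and 283 in ctrl. Its level among cells with Prg4 or Alox15 was 251 CPM in 2DG, 189 in aPDL1, 115 in the combination and 113 in ctrl, so the call was lost there.

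Residency genes other than those of the rule also ran higher in the combination. Against aPDL1, 9 of 27 measured genes of the list were 2-fold higher and 0 lower, with a median log2 ratio of 0.66, against 0.08 over all genes. Against 2DG, 9 of 27 were higher and 0 lower, with a median of 0.78, against 0.07. Of all genes, 5.58% were 2-fold higher over aPDL1 and 7.27% over 2DG. Among cells with Prg4 or Alox15 the medians were 0.64 and 0.50. In 2DG over ctrl the median was -0.26 and in aPDL1 over ctrl -0.06. Ltbp1 had log2 ratios of 2.31 (1.94 to 2.72) over aPDL1 and 2.24 (1.86 to 2.66) over 2DG, Marco 1.68 and 1.16, F5 1.12 and 1.07, and Garnl3 2.26 and 1.71. Saa3 did not follow, with 0.24 and 0.11, nor did F10, with -0.02 and -0.25, nor Gata6 itself, a rule gene, whose levels are given above. The marker sum, by which the members were chosen, was also highest in the combination, and its part in these values was not tested. At 2 times the doublet rate the ratios turned to -5.47 and -5.70 for Marco and -5.06 and -5.16 for F5, since the 6 members left in the combination had neither Prg4 nor Alox15.

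Genes induced by interferon gamma, a cytokine of T and natural killer cells, were mostly lowest in ctrl members. Of the list, 6 of 11 measured genes were 2-fold higher and 0 lower in 2DG over ctrl, with a median log2 ratio of 1.22, against -0.03 over all genes. In aPDL1 over ctrl, 13 of 17 were higher and 0 lower, with a median of 1.5, against -0.07. Of all genes, 8.57% and 8.7% were 2-fold higher in these pairs. In the combination over aPDL1, 0 of 17 were higher and 5 lower (median -0.78), and over 2DG 1 higher and 3 lower (median -0.11). Of all genes, 1.84% were lower over aPDL1 and 5.53% over 2DG. Among cells with Prg4 or Alox15 the 4 medians were 0.70, 1.60, -0.74 and 0.05. Over C1q macrophages the list's median was -0.08 in 2DG, 0.15 in aPDL1, -0.86 in the combination and -0.35 in ctrl. In C1q macrophages Cxcl9 was at 433 CPM in ctrl, against 1096 to 1500 CPM in the treated libraries. Cxcl10 was there at 144 CPM in ctrl, against 323 to 555 CPM. For these 2 genes ctrl was thus the lowest library in C1q macrophages. In members it was not: 2DG lay below ctrl for both genes, and the combination lay below ctrl for Cxcl9. Ctrl was also the library with the fewest T cells, 445 by at least 2 Cd3 UMIs against 2581 to 2712 in the treated libraries, and the part of this in the result was not tested.

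Irf1, a transcription factor induced by interferon gamma, was at 398 CPM in 2DG (329 to 478), 555 in aPDL1 (477 to 643), 507 in the combination (457 to 561) and 116 in ctrl (78.5 to 166), with the 3 treated libraries well above ctrl. Gbp2b, a guanylate-binding protein that acts against intracellular pathogens, had 36, 62, 125 and 1 UMIs, that is 125 CPM in 2DG, 191 in aPDL1, 172 in the combination and 3.88 in ctrl, and Gbp5 was at 138 CPM in 2DG, 259 in aPDL1, 154 in the combination and 38.8 in ctrl. Reads of these guanylate-binding proteins can be shared among paralogs. Cxcl9, a chemokine for T cells, was at 132 CPM in 2DG, 709.7 in aPDL1, 102 in the combination and 174 in ctrl, but 1 cell held 73.9% of its UMIs in aPDL1 and 97.8% in ctrl. Cd274, which encodes PD-L1, did not follow the list: it was at 599 CPM in 2DG (513 to 695), 376 in aPDL1 (313 to 449), 339 in the combination (298 to 384) and 500.2 in ctrl (418 to 594). Pdcd1lg2, which encodes PD-L2, was at 51.9 CPM in 2DG, 21.6 in aPDL1, 23.4 in the combination and 77.5 in ctrl, but in cells with Prg4 or Alox15 at 5.12 CPM in 2DG, 3.63 in aPDL1, 11.2 in the combination and 10.2 in ctrl. The type I interferon list had at most 10 measured genes in any pair. In aPDL1 over ctrl 4 of 5 were 2-fold higher and 0 lower, against 8.7% of all genes higher.

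MHC class II genes were higher in each single treatment than in ctrl, while H2-Aa in the combination was near ctrl. For MHC class II, 7 of 8 genes were 2-fold higher in 2DG over ctrl and 5 of 8 in aPDL1 over ctrl, with medians of 1.20 and 1.09 and 0 lower in both. Of all genes, 8.57% and 8.7% were 2-fold higher in these pairs. In the combination the medians were -0.78 over aPDL1 and -0.89 over 2DG, with 1 and 2 genes 2-fold lower. Of all genes, 1.84% were lower over aPDL1 and 5.53% over 2DG. The class II medians among cells with Prg4 or Alox15 were 0.80 in 2DG over ctrl, 1.35 in aPDL1 over ctrl, -0.99 in the combination over aPDL1 and -0.08 in the combination over 2DG, so the last difference was not seen in them. H2-Aa was at 2101 CPM in 2DG (1937 to 2275), 2203 in aPDL1 (2044 to 2371), 1198 in the combination (1119.96 to 1280.4) and 1008 in ctrl (889 to 1138), and among cells with Prg4 or Alox15 at 978 CPM in 2DG, 1755 in aPDL1, 819 in the combination and 669.9 in ctrl. The level in 2DG members was thus more than 2-fold higher with the cells that had Timd4 alone than without them. In C1q macrophages H2-Aa was at 3899 CPM in 2DG, 4077 in aPDL1, 4189 in the combination and 1729 in ctrl, where the combination was not low. Cd74, the invariant chain, was at 6768 CPM in 2DG, 5782 in aPDL1, 3103 in the combination and 2923 in ctrl in members. H2-K1, of MHC class I, was at 1302 CPM in 2DG, 1678 in aPDL1, 1587 in the combination and 1039 in ctrl, and the medians of the class I list were 0.59 in 2DG over ctrl, -0.41 in the combination over aPDL1, 0.82 in aPDL1 over ctrl and -0.31 in the combination over 2DG. Without the other cells these 4 medians were -0.05 (over 4 genes), -0.17, 0.44 and -0.04, so the class I median in 2DG over ctrl was not above 0 there. H2-K1 in the combination lay nearer to aPDL1 than to ctrl.

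Glycolysis genes, whose pathway 2DG blocks, had lower medians in the aPDL1 pairs than in the 2DG pairs, although few of them were 2-fold lower in aPDL1 over ctrl. The median log2 ratio was 0.01 in 2DG over ctrl. There 2 of 11 genes were 2-fold higher and 0 lower, against 8.57% and 7.45% of all genes. In the combination over aPDL1 the median was -0.28, with 0 higher and 1 of 14 lower, against 5.58% and 1.84%. It was -0.69 in aPDL1 over ctrl, with 1 higher and 1 of 12 lower, shares no larger than the 8.7% and 10.2% of all genes in that pair, and -0.82 in the combination over 2DG, with 0 higher and 7 of 14 lower, against 5.53% of all genes. Among cells with Prg4 or Alox15 the 2 aPDL1 pairs had -0.94 and -0.98. Pgk1, phosphoglycerate kinase, was at 547 CPM in 2DG (465 to 639), 275 in aPDL1 (221 to 338), 146 in the combination (119 to 176) and 543 in ctrl (457 to 641), and in C1q macrophages at 531 CPM in 2DG, 618 in aPDL1, 474 in the combination and 584 in ctrl. Aldoa, aldolase, was at 724 CPM in 2DG, 398 in aPDL1, 327 in the combination and 756 in ctrl, Gapdh at 1312 CPM in 2DG, 858 in aPDL1, 863 in the combination and 1605 in ctrl and Ldha, lactate dehydrogenase, at 568 CPM in 2DG, 426 in aPDL1, 368 in the combination and 523 in ctrl. Slc2a1, which encodes the glucose carrier GLUT1, was at 100.4 CPM in 2DG, 108 in aPDL1, 57.7 in the combination and 159 in ctrl, with 29 to 42 UMIs per library, and Txnip, which lowers glucose uptake, at 208 CPM in 2DG, 234 in aPDL1, 133 in the combination and 182 in ctrl. Over C1q macrophages the list's median was -0.06 in 2DG, -1.01 in aPDL1, -0.92 in the combination and -0.10 in ctrl.

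Hypoxia response genes, like glycolysis genes, had lower medians in the aPDL1 pairs than in the 2DG pairs. Of the list, 5 of 7 measured genes were 2-fold lower and 0 higher in aPDL1 over ctrl, and 4 of 7 lower and 0 higher in the combination over 2DG, with medians of -1.05 and -1.13. Of all genes, 10.2% and 5.53% were 2-fold lower in these pairs, with medians of -0.07 and 0.07. In the 2DG pairs the medians were -0.37 and -0.48. Among cells with Prg4 or Alox15 the medians of the aPDL1 pairs were -1.14 and -1.42. Over C1q macrophages the list's median was 0.04 in 2DG, -0.99 in aPDL1, -0.95 in the combination and -0.16 in ctrl. Bnip3, a mitophagy receptor induced by low oxygen, was at 72.7 CPM in 2DG, 43.2 in aPDL1, 20.6 in the combination and 198 in ctrl, and Arg1, arginase 1, at 3967 CPM in 2DG (3741 to 4204), 2419 in aPDL1 (2253 to 2594), 1809.6 in the combination (1713 to 1910.1) and 6894 in ctrl (6577 to 7222). In C1q macrophages Arg1 ran in the same order, at 3342 CPM in 2DG, 2966 in aPDL1, 2636 in the combination and 3776 in ctrl. Vegfa, the vessel growth factor, was at 107 CPM in 2DG, 15.4 in aPDL1, 42.6 in the combination and 147 in ctrl. Hspa1a, a heat shock protein, was at 239 CPM in 2DG, 43.2 in aPDL1, 19.2 in the combination and 163 in ctrl. Mki67, a marker of dividing cells, was at 242 CPM in 2DG, 74.1 in aPDL1, 103 in the combination and 77.5 in ctrl, but 1 cell held 55.7% of its UMIs in 2DG, and among cells with Prg4 or Alox15 it was at 35.8 CPM in 2DG, 72.7 in aPDL1, 110.1 in the combination and 56.3 in ctrl.

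Immediate early genes and targets of NF-kB, which are switched on within a short time of a stimulus, were higher in the combination than in either treatment alone. Against aPDL1, 10 of 18 immediate early genes were 2-fold higher and 0 lower (median 1.21), and against 2DG 5 and 0 (median 0.61). For NF-kB targets the counts were 5 higher and 0 lower of 12, and 7 and 0 of 12, with medians of 0.93 and 1.16. Of all genes, 5.58% were 2-fold higher over aPDL1 and 7.27% over 2DG, with medians of 0.08 and 0.07. The treatments alone were not above ctrl: the medians over ctrl were -0.25 with 2DG and -0.58 with aPDL1 for immediate early genes, and -0.55 and -0.39 for NF-kB targets. Fos was at 1277 CPM in 2DG, 858 in aPDL1, 2083 in the combination and 1376 in ctrl, and in C1q macrophages at 1340.2 CPM in 2DG, 1258 in aPDL1, 2658 in the combination and 1766 in ctrl, where the combination was also highest. The immediate early median over C1q macrophages was -0.10 in 2DG, -0.50 in aPDL1, -0.19 in the combination and -0.12 in ctrl. That of NF-kB targets was 0.31, 0.24, -0.04 and 0.29 in the same order. Relative to these cells the combination was thus not the highest library for either list. Egr1 was at 585 CPM in 2DG, 499.8 in aPDL1, 1315 in the combination and 639.7 in ctrl and Nr4a1 at 79.6 CPM in 2DG, 46.3 in aPDL1, 235 in the combination and 73.7 in ctrl. Cxcl1 and Cxcl2, chemokines for neutrophils, were at 138 CPM in 2DG, 127 in aPDL1, 356 in the combination and 128 in ctrl, and at 1568 CPM in 2DG, 1552 in aPDL1, 3869 in the combination and 2834 in ctrl. Ccl2, the ligand of CCR2, was highest in ctrl, at 83.1 CPM in 2DG, 74.1 in aPDL1, 114 in the combination and 454 in ctrl, as was Pf4, at 173 CPM in 2DG, 52.5 in aPDL1, 312 in the combination and 888 in ctrl. In C1q macrophages Ccl2 was also highest in ctrl, at 261 CPM in 2DG, 218 in aPDL1, 400 in the combination and 807 in ctrl.

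**Figure D5:**
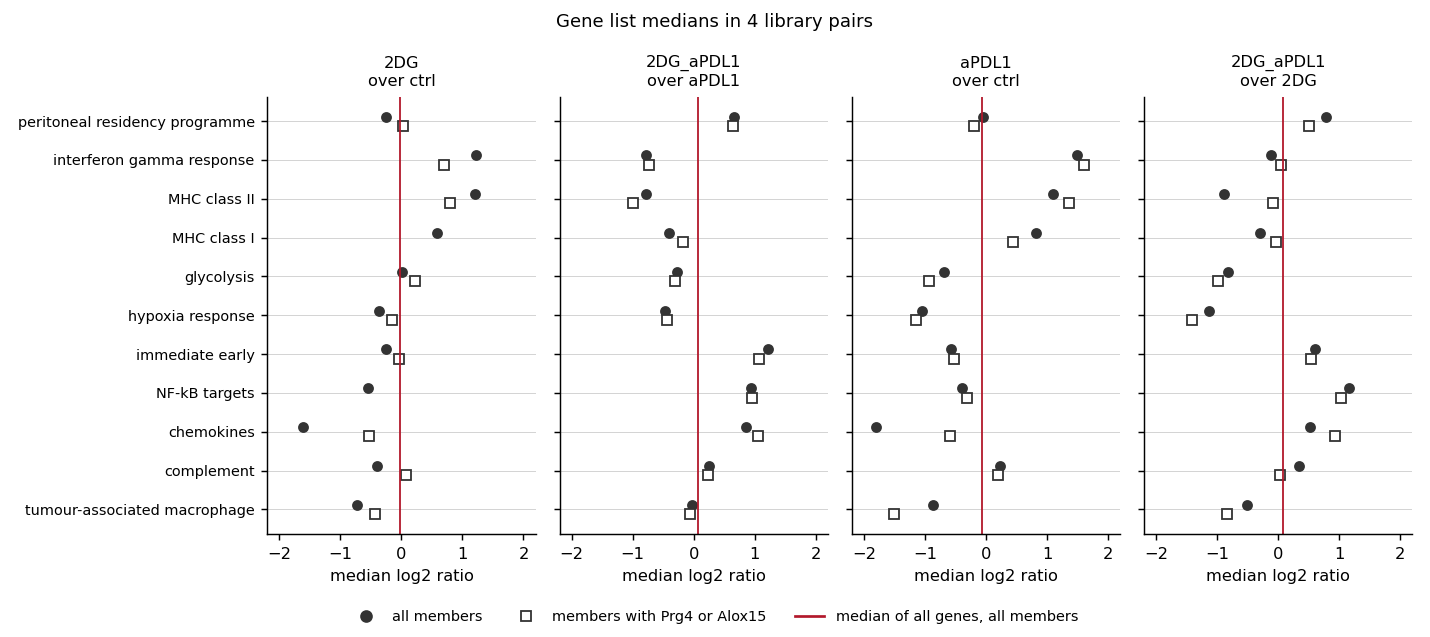
Median log2 ratio over the measured genes of 11 lists in the 4 library pairs, for all members (filled circles) and for cells with Prg4 or Alox15 (open squares), with the median of all genes as a line. Interferon gamma and MHC class II genes lie above the line in both single treatments over ctrl, and glycolysis and hypoxia genes below it in both aPDL1 pairs; medians over fewer than 5 genes are left out.

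Of 11 measured complement genes, 4 were 2-fold higher and 0 lower in the combination over 2DG, against 7.27% of all genes higher. Over aPDL1, 2 were higher and 1 lower, against 5.58% and 1.84% of all genes. In cells with Prg4 or Alox15 the medians of these pairs were 0.03 and 0.24. C3 was at 478 CPM in 2DG, 858 in aPDL1, 329.8 in the combination and 237 in ctrl and Cfb, factor B, at 222 CPM in 2DG, 463 in aPDL1, 273 in the combination and 96.9 in ctrl, highest in aPDL1 in both cases. Cfp, properdin, which stabilises the convertase they form, was at 509 CPM in 2DG, 633 in aPDL1, 1095 in the combination and 516 in ctrl, highest in the combination. The median of the list stayed between -0.40 and 0.35 in the 4 pairs. For tumour-associated macrophage genes the median was -0.73 in 2DG over ctrl, -0.03 in the combination over aPDL1, -0.88 in aPDL1 over ctrl and -0.51 in the combination over 2DG. Chemokine medians were -1.62 and -1.80 in the treatments over ctrl, and -0.53 and -0.58 among cells with Prg4 or Alox15.

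Within the combination, which held 45 of the 94 cells with Prg4 or Alox15, those with and without a Timd4 UMI differed in other genes. Timd4 was detected in 22 of these 45 cells, against 3 of 16 in 2DG, 3 of 23 in aPDL1 and 3 of 10 in ctrl. The 22 cells with Timd4 had a median of 12451.5 UMIs and the 23 without it 15459, so they were not the deeper ones. With Timd4, Ltbp1 was at 1898 against 271 CPM without it, and was detected in 17 of 22 cells against 9 of 23. Tgfb2 was at 615 against 141 CPM, Vsig4 at 126 against 18.1 CPM, in 8 against 1 cells, and Serpinb2 at 1127 against 295 CPM. Fabp4, a fatty acid carrier, was at 251 against 30.1 CPM, Lpl, lipoprotein lipase, at 482 against 135 CPM and Cxcl13 at 937 against 229 CPM. Levels of the rule gene Prg4 were 3212 against 1704 CPM, of F5 893 against 476 CPM and of Icam2 339.6 against 169 CPM. Saa3, at 14486 against 15344 CPM, and C1qa, at 2757 against 2929 CPM, were close in the 2 sets.

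The opposite direction was seen for MHC class II genes, Cd74, Mrc1, Retnla and Ccr2. H2-Aa was at 377 against 1210.2 CPM in cells with Timd4 and without it, H2-Ab1 at 438 against 1376 CPM, H2-Eb1 at 241 against 710.4 CPM and Cd74 at 1114 against 3414 CPM. Mrc1, the mannose receptor, was at 74.7 against 653 CPM and in 6 of 22 against 16 of 23 cells. Retnla was in 0 against 6 cells, and Ccr2 at 20.4 against 72.2 CPM. Of the Retnla UMIs in the combination, 70.8% lay in 1 cell. Other markers of small cavity macrophages are not given for this split, so no cell type is read from Retnla and Ccr2. Across the 45 cells Spearman's rho of CPM between Prg4 and H2-Aa was -0.73, and across all 94 cells it was -0.48, while that of Prg4 with F5 was 0.63 and with UMIs per cell -0.08. In aPDL1, over 23 cells, Prg4 and H2-Aa had a rho of -0.48. Cells of 1 library share their source and Timd4 and Prg4 are rule genes, so these values describe the spread among members and carry no test.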

How the data were processed

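Droplet single-cell libraries of 4 mouse treatment groups, 1 library each, were analysed from the deposited matrices, which hold whole-number UMI counts per gene and barcode. Per the file headers the authors made these counts with Cell Ranger 7.0.0, while the submitters' processing notes name Cell Ranger 3.1.0 and mm10; the handling of intronic reads was not given in the sources used here. Barcodes needed 500 or more genes and mitochondrial UMIs of 10% or less, and no doublets were removed in the main values; Scrublet scores (scanpy 1.11.5) gave the alternatives.

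Members were chosen by the marker rule. The members and the gene lists were chosen with earlier results of these data known. UMIs were summed per library over members and divided by their total to give CPM. Log2 ratios were taken of CPM after 0.5 was added to each count. In pairs, a gene was called at 2-fold where its higher library had 50 or more UMIs. For the combination against the other 3 libraries, higher genes needed 50 UMIs in the combination. Lower genes needed 50 in each of the other 3. With 1 library per group no test was run; intervals are 95% and cover counting error only, and reads of paralogs may be shared. Calls were made in 2 pairs per treatment that share no library, while the 2 treatment comparisons share all 4. In all, 3 list genes were not found by name and were not analysed here, and 3 genes that the naming rule or lists would give are not reported here.

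Genes named are up to 8 per direction and treatment by the smaller of the 2 absolute ratios, up to 5 per direction for the combination, the 15 highest and 5 lowest over C1q macrophages, 37 genes always given, and genes of the lists described. Scripts used Python 3.11.15, numpy 2.4.6, scipy 1.17.1 and pandas 2.3.3, were tested on simulated data, and took TMM factors from edgeR 4.0.16 for 1 alternative. Alternatives were other marker sums, cell filters, doublet rates, normalizations, UMI minimums, folds and pseudocounts, thinning, and leaving out deep cells, cells with neutrophil transcripts or single cells.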

Additional observations from a re-analysis of the deposited data

How the results depend on the processing

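The calls at the settings used above were 7 higher in both 2DG pairs, 3 lower in both 2DG pairs, 22 higher in both aPDL1 pairs, 33 lower in both aPDL1 pairs, 38 higher in the combination alone, 1 lower in the combination alone, 38 higher than C1q macrophages and 131 lower than C1q macrophages. Of the counts of calls and the shares, 111 of 168 alternative values were close to those reported. With a marker sum of at least 3, calls were 3 lower in the combination alone. With a marker sum of at least 6, calls were 2 lower in the combination alone. Log2 ratios turned sign in the combination over aPDL1 (Spp1 4.79, Cd63 0.99) and aPDL1 over ctrl (Prune2 -1.89, Cald1 -0.86). With a marker sum of at least 10, members were 0.151% in 2DG, 0.177% in aPDL1 and 0.0660% in ctrl, calls were 1 lower in both 2DG pairs, 12 lower in both aPDL1 pairs and 4 lower in the combination alone and the chemokine median in aPDL1 over ctrl was 0.19. Log2 ratios turned sign in 2DG over ctrl (Pard3b -0.22), the combination over aPDL1 (Spp1 2.69, Cd63 0.89, Gzma -0.82, Krt18 -1.56), aPDL1 over ctrl (Prune2 -2.00, Cald1 -1.51) and the combination over 2DG (Prune2 -1.73, Krt18 -1.73). With at most 5% mitochondrial UMIs, calls were 0 lower in the combination alone. With doublets removed at 0.8% per 1000 barcodes, members were 0.386% in the combination and calls were 5 lower in both 2DG pairs and 5 lower in the combination alone. Log2 ratios turned sign in the combination over aPDL1 (Gzma -0.58). At 2 times that rate, members were 0.184% in aPDL1 and 0.0767% in the combination and calls were 21 lower in both 2DG pairs, 9 higher in both aPDL1 pairs, 25 higher in the combination alone, 64 lower in the combination alone and 0 higher than C1q macrophages. Log2 ratios turned sign in the combination over aPDL1 (Serpinb2 -4.29, Klf4 -0.69, Ptprm -4.60, Pard3b -4.70, AA467197 0.40, Cxcl13 -1.67, Gzma -0.45, Retnla -1.19, Marco -5.47, Selp -1.50, F5 -5.06), the combination over 2DG (Cd5l -4.26, Tgfb2 -3.76, Cxcl10 -3.33, Tmx4 -0.80, Cxcl13 -0.80, Marco -5.70, F5 -5.16, C1qa -7.08, Rarb -3.52) and aPDL1 over ctrl (Cxcl10 -0.17, Ccl17 2.65, Tbc1d8 0.13, Cxcl9 -0.72). Here 6 of 53 members of the combination were left, none with Prg4 or Alox15. Without members over 2 times the median UMIs, calls were 13 higher in both aPDL1 pairs, 19 lower in both aPDL1 pairs, 25 higher in the combination alone and 2 lower in the combination alone. Log2 ratios turned sign in the combination over 2DG (Prune2 -1.60, Krt18 -3.18, Mki67 1.66) and the combination over aPDL1 (Krt18 -2.80). Without members with 3 or more S100a8 and S100a9 UMIs, calls were 19 lower in both aPDL1 pairs, 0 lower in the combination alone and 25 higher than C1q macrophages. With TMM factors, calls were 0 lower in the combination alone. With a minimum of 20 UMIs, calls were 20 higher in both 2DG pairs, 8 lower in both 2DG pairs, 59 higher in both aPDL1 pairs, 67 lower in both aPDL1 pairs, 74 higher in the combination alone and 8 lower in the combination alone. With a minimum of 100 UMIs, calls were 2 higher in both 2DG pairs, 11 higher in both aPDL1 pairs, 11 lower in both aPDL1 pairs, 24 higher in the combination alone and 0 lower in the combination alone. At 1.5-fold, calls were 21 higher in both 2DG pairs, 16 lower in both 2DG pairs, 63 higher in both aPDL1 pairs, 79 lower in both aPDL1 pairs, 92 higher in the combination alone and 18 lower in the combination alone. With 5 added to each count, calls were 34 lower than C1q macrophages. Among members with Prg4 or Alox15, calls were 14 higher in both aPDL1 pairs, 18 lower in both aPDL1 pairs, 3 lower in the combination alone and 248 lower than C1q macrophages. Log2 ratios turned sign in 2DG over ctrl (Hmgb2 -0.18, Mki67 -0.62), the combination over 2DG (Prune2 -1.68, Krt18 -3.27, Mki67 1.53) and the combination over aPDL1 (Krt18 -3.51). Without the member with most UMIs of the gene, log2 ratios turned sign in the combination over 2DG (Prune2 -1.33, Krt18 -1.31) and the combination over aPDL1 (Krt18 -2.80). Thinned to 3000 UMIs, members were 0.101% in 2DG, 0.182% in aPDL1, 0.415% in the combination and 0.0423% in ctrl. Of cells with Csf1r or Adgre1, members were 0.643% in 2DG, 0.645% in aPDL1, 1.23% in the combination and 0.255% in ctrl. Both the restriction to members with Prg4 or Alox15 and the removal of single cells were chosen after seeing the data, and the cause of these differences was not tested. No paired analysis was possible because each group is 1 library and the labels carry no replicate numbers. Ctrl has 12 members, so ratios over ctrl can rest on 1 cell.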
